A study of Mus musculus with 4 samples.

Results

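The 6 mouse Iroquois genes lie in 2 clusters of 3 genes, Irx1-Irx2-Irx4 on chromosome 13 and Irx3-Irx5-Irx6 on chromosome 8, and HOXA5-FLAG peaks were examined at both. Peaks were taken where the summit fell inside an Irx gene or within 500 kb of its annotated span. This gave 9 of 4289 peaks in replicate 1 and 5 of 2832 in replicate 2. The peaks came from chromatin immunoprecipitation followed by sequencing (ChIP-seq) with an anti-FLAG antibody on whole lungs of mouse embryos at E15.5. These mice are labelled Hoxa5FLAG/FLAG, that is, both copies of the endogenous Hoxa5 gene carry the FLAG epitope. The 2 immunoprecipitates form 1 group, and no untagged lung or input was analysed here. The sample titles use the abbreviation wt beside that genotype, and the peak names of replicate 2 carry another replicate number; the labels were followed. Nothing in the labels says that the replicates were separate litters or how many lungs each held, and overlap between the lists may reflect this. All positions are in mm10, and the read depth is unknown.

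Iroquois proteins are homeodomain transcription factors of the TALE class, the class that also holds the MEIS and PBX partners of HOX proteins, and they carry a conserved motif of their own, the Iro box. The clusters arose by duplication, so that Irx1 pairs with Irx3, Irx2 with Irx5 and Irx4 with Irx6. The genes sit in large gene-poor intervals that hold long-range enhancers. Several are expressed in the branching lung epithelium, while Irx4 is best known from the cardiac ventricle and Irx6 from the retina. HOXA5 in the embryonic lung is found chiefly in the mesenchyme. In whole lung, a peak does not show in which cells the protein was bound, and a peak near a gene does not show that the gene is its target.

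The promoter below is the single one in the RefSeq promoter table, in either window, that a HOXA5-FLAG peak overlapped. It belongs to 4831440D22Rik, a long noncoding RNA gene on the minus strand inside Fto, and lies at chr8:91467714-91468013 (GRCm38.p6, minus strand, 250 bases before to 50 bases after the start). It is shown because the peak in replicate 1 (chromosome 8, 91467500 to 91467868, 4.31-fold) had its summit 85 bp downstream of the transcription start. Capitals mark the 155 bases of this window that the peak, 369 bp long, covers. The window ends 50 bases after the start, so the summit lies beyond the last printed base.
4831440D22Rik: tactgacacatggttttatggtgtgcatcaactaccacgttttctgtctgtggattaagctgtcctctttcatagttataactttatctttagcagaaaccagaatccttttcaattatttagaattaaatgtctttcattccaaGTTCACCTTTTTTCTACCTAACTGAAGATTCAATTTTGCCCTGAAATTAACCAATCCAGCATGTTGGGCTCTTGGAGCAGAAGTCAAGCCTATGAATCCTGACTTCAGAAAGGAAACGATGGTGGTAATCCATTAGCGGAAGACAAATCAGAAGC
Of its bases 37.7% are G or C. Replicate 2 had no peak there. Promoter windows were overlapped by 2.59% of all replicate 1 peaks and 1.73% of all replicate 2 peaks.

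Promoters of Irx2, Irx3 and Irx4, the 3 of 6 members found in the RefSeq table, had no peak in either list. Among all promoter windows, of which 32851 have 300 bases, any window was overlapped by only 111 replicate 1 and 49 replicate 2 peaks. The absence at these 3 is therefore no result about them. These 3 promoters and the 4831440D22Rik promoter were searched on both strands for 3 motifs. They were TGATNNAT, a HOX-PBX type motif, TAATTA, a homeodomain motif that reads the same on both strands, and TGACAG, a MEIS type motif. TGATNNAT and TAATTA can overlap each other. No match was found in the 4 windows of 300 bases. Among all 32851 promoter windows of that length, TGATNNAT was found in 8.85%, TAATTA in 5.29% and TGACAG in 19.2%. The absence of a match says only that these letters are not in these windows. The summit of the peak at 4831440D22Rik lay outside the searched window.

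No peak of either list had its summit inside an Irx gene. Few coding genes held one: 5.79% of all protein-coding genes held a replicate 1 summit and 3.25% a shared one. This absence is therefore no result about the family. Of the 6 genes, 4 (Irx1, Irx3, Irx5 and Irx6) had at least 1 shared peak within 500 kb, that is, a peak found in both lists with an overlap of at least 1 bp. Among all 21779 protein-coding genes the figure was 49.8%, so the count of 4 is no result about the family. The same 4 genes had a peak of the replicate 1 list within 500 kb, against 70.2% of coding genes, and a peak of the replicate 2 list, against 59.0%. Irx2 and Irx4 had no peak of either list within 500 kb, as had 25.1% of coding genes. A gene missing from such a count may have sites that fell below the peak caller's threshold.

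The Irx1-Irx2-Irx4 window ran over 2.31 Mb (chromosome 13, 71458232 to 73769622) and held 1 peak in replicate 1, 1 in replicate 2 and 1 shared peak, the same site in each case. The Irx3-Irx5-Irx6 window was shorter, at 1.88 Mb (chromosome 8, 91298511 to 93180956), and held 8, 4 and 3. Per Mb these were 0.433 replicate 1 peaks in the Irx1-Irx2-Irx4 window against 4.25 in the Irx3-Irx5-Irx6 window, with 1.59 over the annotated genome. In replicate 2 they were 0.433 and 2.12, with 1.05 over the genome, and for shared peaks 0.433 and 1.59, with 0.806 over the genome. In all 3 counts the Irx1-Irx2-Irx4 window lay below the genome's density and the Irx3-Irx5-Irx6 window above it. The 3 counts are not independent, because shared peaks are part of both lists. Departure from the genome's density was not tested, and the intervals that follow are for counts, not for peaks per Mb. Counting error is wide at such numbers: the exact Poisson interval of 1 peak is 0.0253 to 5.57, that of 3 peaks 0.619 to 8.77, and that of 8 peaks 3.45 to 15.8.

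The ratio of densities, Irx1-Irx2-Irx4 over Irx3-Irx5-Irx6, was 0.102 in replicate 1 (exact conditional 95% interval 0.00229 to 0.759). It was 0.204 in replicate 2 (0.00413 to 2.06) and 0.271 for shared peaks (0.00517 to 3.38). The interval therefore lay below 1 in replicate 1 and included 1 in the other 2 counts. It holds for the 500 kb window alone and was not computed for replicate 1 at narrower ones. There both clusters together held only 3 replicate 1 peaks at 250 kb and 2 at 100 kb. With the window narrowed to 100 kb around each gene, each cluster held 1 shared peak and the ratio was 0.981, so the additional peaks of the Irx3-Irx5-Irx6 window lay farther from its Irx genes.

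**Figure D1:**
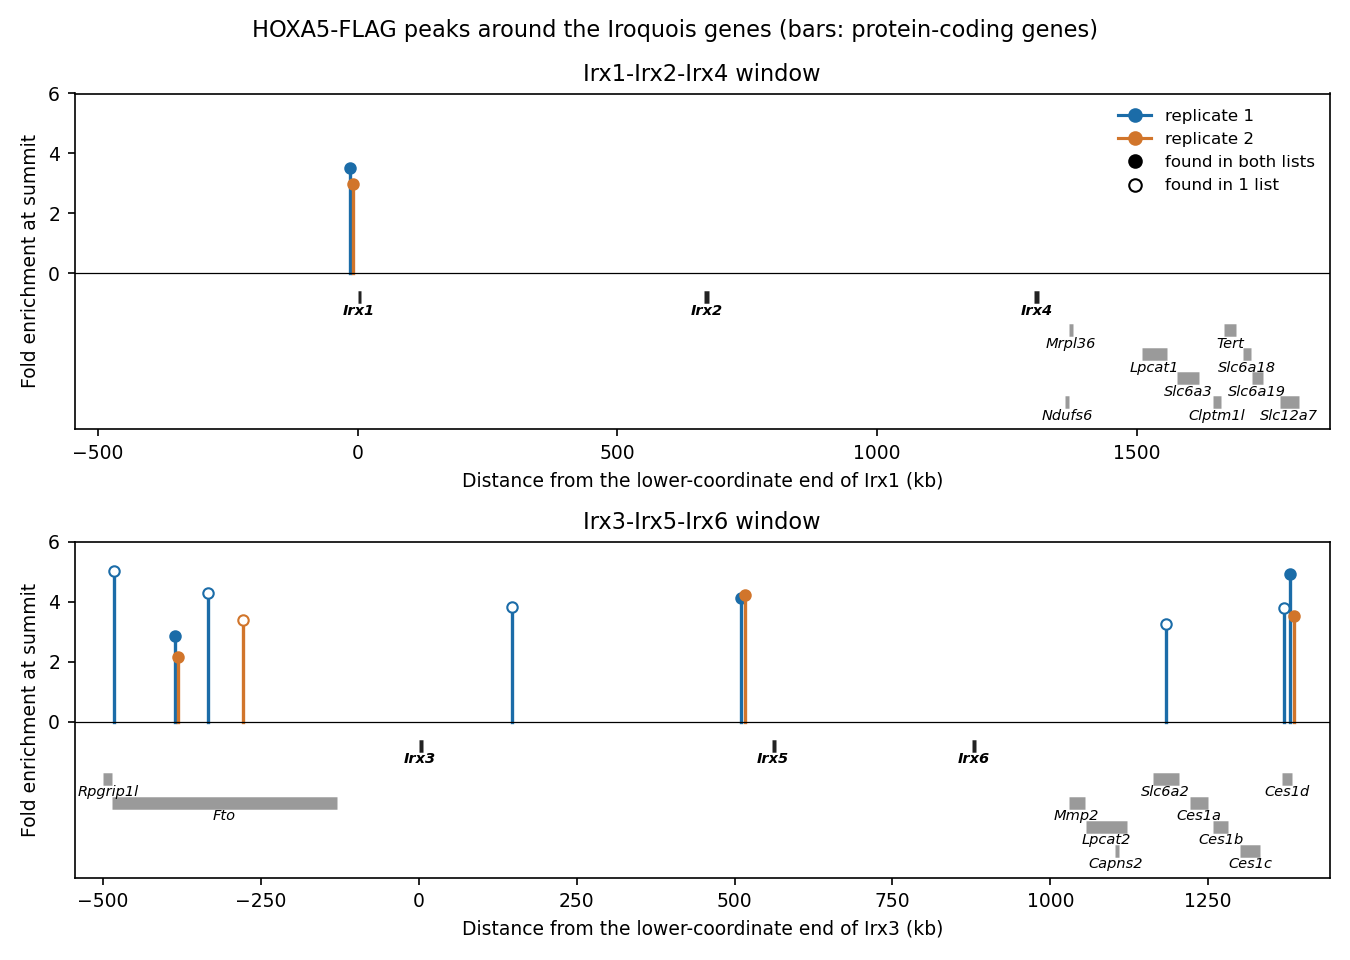
Peaks of both lists along the Irx1-Irx2-Irx4 window (top) and the Irx3-Irx5-Irx6 window (bottom), by distance in kb from the lower-coordinate end of the first gene; stem height is the fold enrichment at the summit, and bars below are protein-coding genes. Stems of replicate 1 and replicate 2 are drawn 3 kb to the left and right of the summit so that both can be seen; 1 site stands beside Irx1, while 8 replicate 1 and 4 replicate 2 peaks are spread over the lower window.

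Irx1, which is expressed in lung epithelium, had the nearest peak of the family. It covered 71945678 to 71946322 on chromosome 13 in replicate 1, with 3.51-fold enrichment and a −log10 q of 10.1. In replicate 2 it covered 71945559 to 71946278, with 2.98-fold enrichment and a −log10 q of 7.64. Every fold and −log10 q given here is the authors' value, set by their peak caller within 1 list. The summits were 12.2 kb and 12.5 kb from the lower-coordinate end of the gene, outside any annotated gene. The peaks shared 601 bp, but their summits stood 305 bp apart, so the site was no longer shared when summits within 100 bp were required. Over all protein-coding genes, 4.55% had a nearer shared peak.

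Above Irx1 no peak was found. The 660.7 kb between Irx1 and Irx2, the 625.4 kb between Irx2 and Irx4 and the 500 kb beyond Irx4 held 0 peaks in both lists. The 3 genes lay in 1 peak-free stretch of 2.58 Mb (chromosome 13, 71946323 to 74528697). Of the 4845 peak-free stretches of the assembled chromosomes, 2.39% were longer, and the median was 275 kb. This share counts stretches, not genes or bases. None of the 12 protein-coding genes of this window held a peak, Irx genes included. Of all protein-coding genes only 5.79% held a replicate 1 peak and 3.25% a shared one, so this absence is no result about the 12 genes. The nearest summit of either list to Irx2 was the one beside Irx1, about 678 kb away. For Irx4 it lay 1260 kb away, in replicate 1 and in replicate 2, near Zfp825, at a long peak with a −log10 q of 595 and 799 at 4.14- and 3.86-fold. This peak had the same limits in both lists, 74528698 to 74530603, and bounds the peak-free stretch. With only peaks of at most 1000 bp kept, the nearest shared summit to Irx4 was the one beside Irx1, 1314 kb away. Over all protein-coding genes, 60.2% had a nearer shared peak than Irx2 and 79.7% a nearer one than Irx4.

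Irx5, the paralogue of Irx2, had the second nearest peak, and this peak was the best shared of the 4. It covered 92312300 to 92312591 on chromosome 8 in replicate 1, with 4.12-fold enrichment and a −log10 q of 14.4. In replicate 2 it covered 92312210 to 92312587, with 4.22-fold enrichment and a −log10 q of 13.9. The summits were 31 bp apart and lay 45.4 kb from Irx5, in the interval between Irx3 and Irx5. The nearest annotated gene was Crnde, a long noncoding RNA gene next to Irx5, 13.6 kb away. Of all coding genes, 8.40% had a nearer shared peak than Irx5. Stricter criteria for a shared peak were then applied. An overlap of at least 50% of both peaks left 3 of the 4 sites, against 90.4% of all 2175 shared peaks. Summits within 100 bp left 2, against 73.0%, a −log10 q of at least 5 in both lists left 3, against 81.1%, and lengths of at most 1000 bp left 4, against 75.5%. All 4 criteria together were met by the Irx5 site alone among the 4, and by 54.2% of all shared peaks.

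Irx3, the paralogue of Irx1, had no shared peak nearer than 383.9 kb. A peak at 147.6 kb, between Irx3 and Irx5 (chromosome 8, 91949063 to 91949342), was found in replicate 1 alone, with 3.82-fold enrichment and a −log10 q of 13.0. The other peaks that fell within 500 kb of Irx3 were in Fto. This neighbour encodes an RNA demethylase, and stretches of its introns are known to hold long-range regulatory elements of Irx3 and Irx5. Exons and introns could not be told apart in the annotation used, and contact between these sites and Irx3 was not measured.

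Fto, a gene of 355 kb, held 3 replicate 1 peaks and 2 replicate 2 peaks, of which 1 was shared. The shared peak covered 91414172 to 91414914 in replicate 1, with 2.88-fold enrichment and a −log10 q of 7.23. In replicate 2 it covered 91414265 to 91414545, with 2.16-fold enrichment and a −log10 q of 2.62. It was the weakest of the 4 by fold and by −log10 q in both lists. It was no longer shared when an overlap of at least 50% of both peaks or a −log10 q of at least 5 was required. The replicate 1 peaks without a partner were at 91319377 to 91319692 (5.04-fold), in the lower-coordinate part of Fto, and at the 4831440D22Rik start shown above (4.31-fold). The replicate 2 peak without a partner was at 91516899 to 91517243 (3.41-fold). Both replicate 1 peaks without a partner had a higher fold than the shared one, and so had that of replicate 2 within its own list. At least 3 replicate 1 peaks lay in 0.528% of all protein-coding genes, and in 14.0% (60 of 428) of those at least as long as Fto.

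Irx6, the paralogue of Irx4, had its nearest shared peak 361.9 kb away, which is the one beside Irx5, and none between it and Irx5. Beyond it, Mmp2, a matrix metalloproteinase gene, Lpcat2 and Capns2 held no peak, and farther out neither did Ces1a, Ces1b and Ces1c. Only 5.79% of all protein-coding genes held a replicate 1 summit, so this absence is no result about these genes. Slc6a2, the noradrenaline transporter gene, held a replicate 1 peak at 303.9 kb from Irx6 (92984606 to 92984957, 3.26-fold, −log10 q of 6.69). It had the lowest −log10 q of the 9 replicate 1 peaks.

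Ces1d, a carboxylesterase gene, held the fourth shared peak at the outer limit of the window. It covered 93180580 to 93181166 in replicate 1, with 4.92-fold enrichment and a −log10 q of 18.6. In replicate 2 it covered 93180581 to 93180970, with 3.54-fold enrichment and a −log10 q of 8.51. Its summits were 126 bp and 278 bp inside the limit of 500 kb from Irx6 and 152 bp apart, so it was not shared at summits within 100 bp. A second replicate 1 peak in Ces1d (93171764 to 93172102, 3.80-fold) had no partner. Ces1d is 1 of several neighbouring Ces1 genes, and how reads matching more than 1 copy were treated is not given in the sources used here. Just outside the window, in replicate 1, lay a 3.25-fold peak in Rpgrip1l, a cilium gene next to Fto, 7.61 kb beyond the limit. Below the Irx1 window, 85.3 kb beyond the limit, replicate 1 had a 7.26-fold peak in the noncoding gene Gm40998 with no partner in replicate 2.

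The 14 peaks lay away from the top of their lists, and about as many had a partner as in the lists as wholes. Of the 9 replicate 1 peaks, 4 (44.4%, Wilson interval 18.9 to 73.3) had a partner in replicate 2, against 51.2% of the whole list. Of the 5 replicate 2 peaks, 4 (80%, 37.6 to 96.4) had a partner in replicate 1, against 77.6% of the whole list. Fold enrichment ran from 2.88 to 5.04 in replicate 1, with a median of 3.82 against 3.87 for the list. In replicate 2 it ran from 2.16 to 4.22, with a median of 3.41 against 3.36. The highest fold was rank 1176 of 4289 in replicate 1, in Fto, and rank 753 of 2832 in replicate 2, beside Irx5. No peak exceeded 743 bp, and over the whole lists 10.8% of replicate 1 and 17.6% of replicate 2 peaks were longer than 1000 bp. With only 9 and 5 peaks, the absence of such long ones is no result about these loci.

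**Figure D2:**
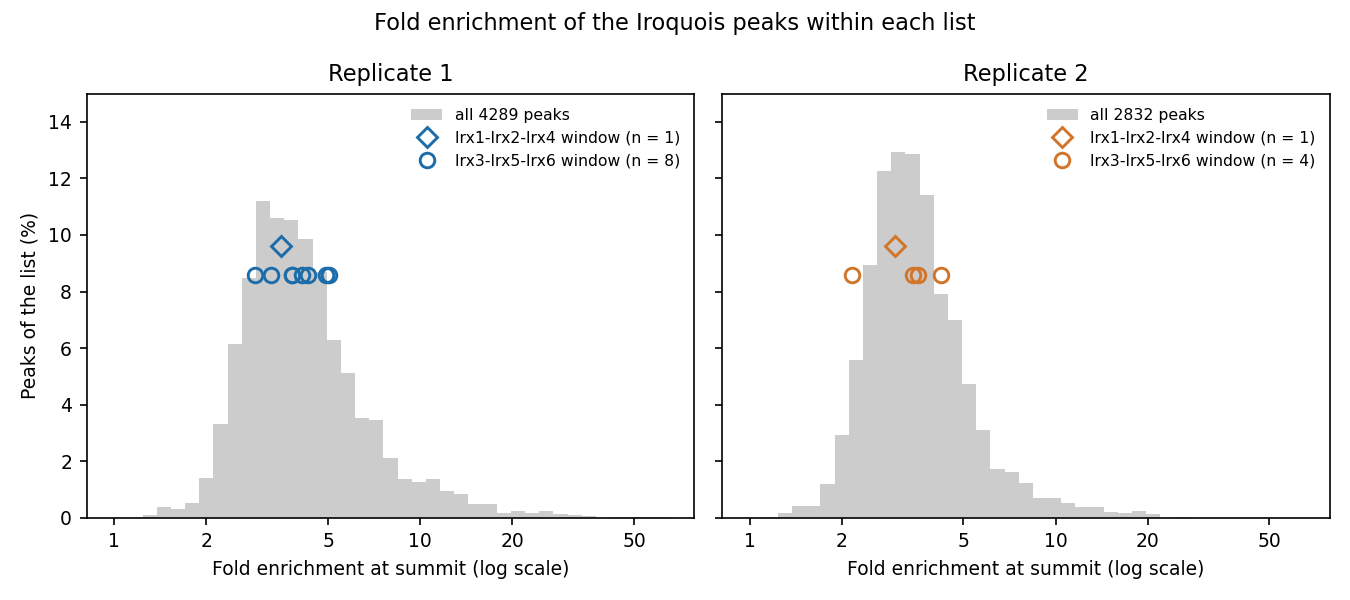
Fold enrichment at the summit (log scale) of all peaks of each list, as the share of peaks per bin in grey, with the peaks of the Irx1-Irx2-Irx4 window (diamonds) and the Irx3-Irx5-Irx6 window (circles) at their fold; the height of the symbols has no meaning. All symbols fall in the bulk of the list, between 2.88 and 5.04 in replicate 1 and between 2.16 and 4.22 in replicate 2.

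Positions relative to genes were counted next. The 1 site of the Irx1-Irx2-Irx4 window was intergenic, as were 48.5% of all replicate 1 peaks and 50.8% of all replicate 2 peaks. In the Irx3-Irx5-Irx6 window, 6 of 8 replicate 1 peaks and 3 of 4 replicate 2 peaks had their summit in a protein-coding gene, Fto, Slc6a2 or Ces1d, and the others were intergenic. Of its 3 shared peaks 2 were in a coding gene. Over the whole lists the share in coding genes was 41.7% in replicate 1, 40.0% in replicate 2 and 39.6% among shared peaks. With a single site in the Irx1-Irx2-Irx4 window, no difference in position between the clusters was tested. Protein-coding genes cover 10.5% of the Irx1-Irx2-Irx4 window and 32.6% of the Irx3-Irx5-Irx6 window, which is a difference between the windows in which the peaks were counted. Its part in the peak counts was not tested.

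Counted per gene, replicate 1 peaks within 500 kb numbered 1 at Irx1, 0 at Irx2 and Irx4, 4 at Irx3, 2 at Irx5 and 4 at Irx6. In replicate 2 the numbers were 1 at Irx1, 0 at Irx2 and Irx4, 2 at Irx3, 1 at Irx5 and 2 at Irx6. Shared peaks numbered 1 at Irx1, 0 at Irx2 and Irx4, 1 at Irx3, 1 at Irx5 and 2 at Irx6, where 1 of the 2 is the Ces1d peak at the limit. More replicate 1 peaks than at Irx3 or Irx6 were found at 6.12% of all coding genes, and more replicate 2 peaks at 11.4%. More shared peaks than at Irx6 were found at 7.15%, and more than the 1 at Irx1, Irx3 and Irx5 at 19.9%. Genes with an equal number are not in these shares. Neighbouring genes share peaks in these counts, as Irx5 and Irx6 share the peak between Irx3 and Irx5.

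**Figure D3:**
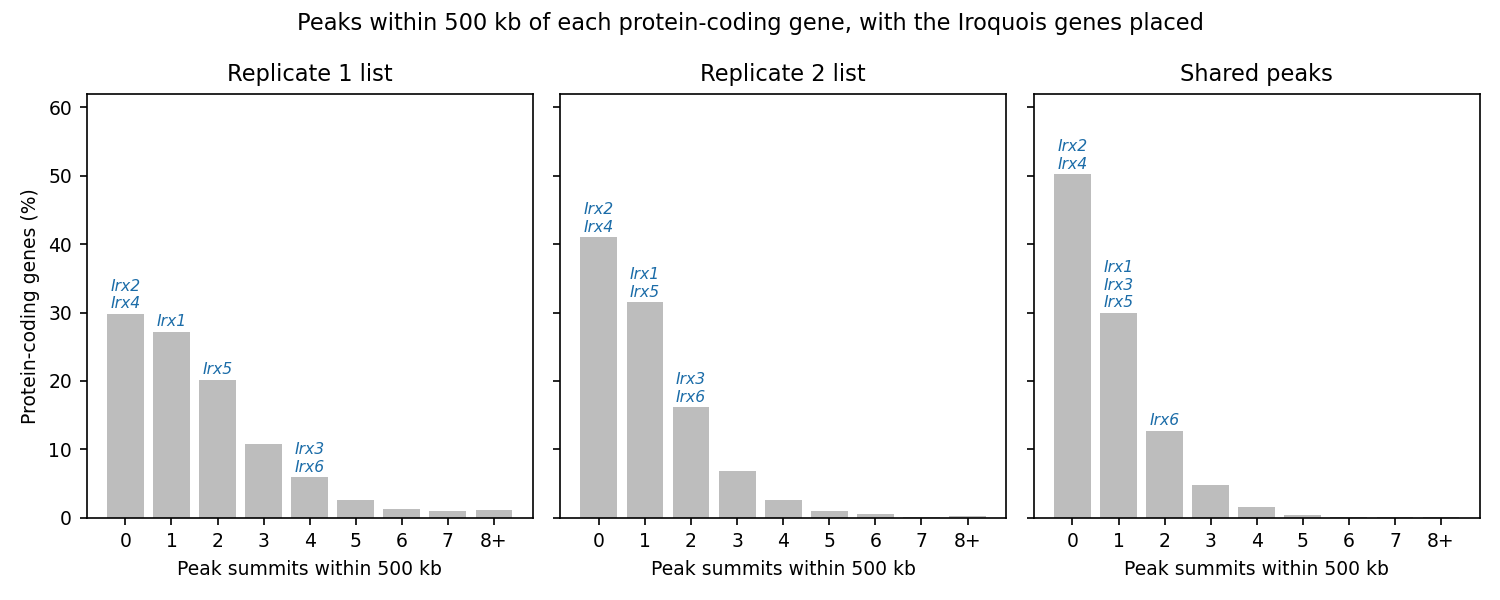
Share of the 21779 protein-coding genes (vertical axis, %) by the number of peak summits within 500 kb (horizontal axis), for replicate 1, replicate 2 and shared peaks, with each Irx gene written above its own count. Irx2 and Irx4 stand at 0 in all 3 panels, and Irx3 and Irx6 stand at 4 in replicate 1.

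By distance to the nearest shared summit the order was Irx1 (12.2 kb), Irx5 (45.4 kb), Irx6 (361.9 kb), Irx3 (383.9 kb), Irx2 (678.4 kb) and Irx4 (1260 kb). The median over the 6 genes was 373 kb, against 503 kb over all protein-coding genes. Irx6 and Irx3, neighbours in this order, changed places in each list alone, where Irx3 was nearer: 147.6 kb against 303.9 kb for Irx6 in replicate 1, and 281.5 kb against 361.9 kb for Irx6 in replicate 2. The place of Irx1 rests on the overlap rule: with summits within 100 bp required, its nearest shared summit lay 2498 kb away and that of Irx2 1895 kb away, so that Irx1 became the farthest of the 6, while Irx5 stayed at 45.4 kb. The near peaks were not at a pair of paralogues, since Irx1 pairs with Irx3 and Irx5 with Irx2.

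**Figure D4:**
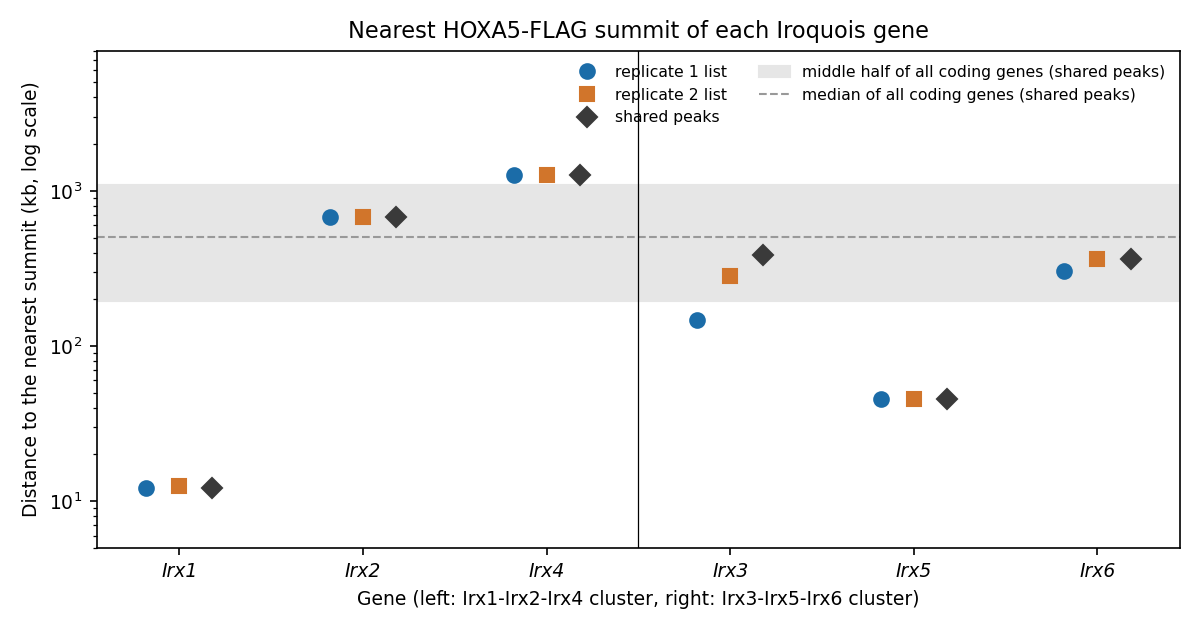
Distance in kb (log scale) from each Irx gene to the nearest summit in replicate 1 (circles), replicate 2 (squares) and among shared peaks (diamonds); the grey band spans the 25th to 75th percentile and the dashed line the median of 503 kb over all protein-coding genes for shared peaks. Irx1 and Irx5 lie below the band in all 3 lists, and Irx4 lies above it at 1260 kb. The band is for shared peaks only, so replicate points are not placed against their own lists by it. The same percentiles were 94.4 and 585 kb in replicate 1, where Irx2 lay above them and Irx3 between them. In replicate 2 they were 149 and 801 kb.

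Other regulator genes, counted in the same way, give a scale for these numbers. Of the 6 Iroquois genes 4 had a shared peak within 500 kb, with a median of 1 per gene (range 0 to 2). Of 12 TALE genes outside the family, 8 had one, with a median of 2 (range 0 to 6). Among all protein-coding genes the share with one was 49.8%. Pbx3, a HOX partner gene, had 6 and Meis1 had 3, whereas Pbx4, Tgif1, Tgif2 and Mkx had 0. The 4 T-box genes Tbx2 to Tbx5, which like the Iroquois genes lie in paired clusters, had 5 or 6 shared peaks each. Neighbouring T-box genes share peaks in these counts, and their windows together held 11 shared peaks. Of the nuclear factor I genes, Nfib had 9, Nfia 4, Nfix 1 and Nfic 0. Density of shared peaks was 0.954 per Mb over both Iroquois windows, 1.5 over the TALE windows, 4.79 over the T-box windows and 2.86 over the nuclear factor I windows. Over the annotated genome it was 0.806. The Iroquois count of 4 shared peaks has an exact Poisson interval of 1.09 to 10.2, the T-box count of 11 one of 5.49 to 19.7, in windows of 4.19 and 2.30 Mb. These differences were not tested.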

How the data were processed

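Peak lists of 2 HOXA5-FLAG immunoprecipitates were used, and the 2 input libraries were not. Per the submitters' processing notes, MACS3 3.0.1, Bowtie2 2.5.2 and the mm10 build were among the tools and builds, beside SAMtools 1.18, bedtools 2.31.0, FastQC 0.12.1, deepTools and Trim Galore; no settings are stated there, nor whether an input served as control. The authors deposited 1 peak list per immunoprecipitate, with the fold enrichment at the summit as a ratio and −log10 p and −log10 q values. The deposited score and −log10 p were not used. Without read counts in the lists, depth is unknown.

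Summits within 500 kb of an Irx gene were kept, windows of neighbouring genes were joined, and peaks of the 2 lists overlapping by at least 1 bp were called shared and placed at the replicate 1 summit. Genes came from the RefSeq table of GRCm38.p6, which is mm10. Of 49943 genes, 340 were dropped because their start, below 3 Mb and not on Y, was taken for a scaffold position, leaving 49603 with 21779 protein-coding ones. The table holds no exons. Counts carry exact Poisson intervals, density ratios exact conditional intervals and shares Wilson intervals, all at 95%. These treat peaks as independent and cover counting error only. No p-value was computed, because the immunoprecipitates form 1 group, and because the members, comparison lists and alternatives were chosen with earlier results of these data known. Named genes are the 6 Irx genes, those holding a peak in a window, the coding gene nearest to each shared peak and the comparison lists. Others were named for their place in or beside a window. Overlap and window steps were tested on simulated data. Python 3.11.15, pandas 2.3.3 and SciPy 1.17.1 were used.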

Additional observations from a re-analysis of the deposited data

How the results depend on the processing

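With summits within 100 bp required, the Irx1-Irx2-Irx4 window held 0 shared peaks and the density ratio was 0, while the Irx3-Irx5-Irx6 window held 2. With a window of 250 kb or of 100 kb the Irx3-Irx5-Irx6 window held 1 shared peak, and the ratios were 0.870 and 0.981. With a single list in use, without replicate 2 or without replicate 1, the Irx3-Irx5-Irx6 window held 8 or 4 peaks and the Irx1-Irx2-Irx4 window held 1 in either case, with ratios from 0.102 to 0.204. The share of replicate 1 peaks with a partner was 100% within 100 kb (2 of 2 peaks), and that of replicate 2 peaks was 100% within 250 kb and within 100 kb (2 of 2 peaks each). These changes follow from the fewer or additional peaks that each setting keeps. Counts, ratios and shares under the remaining alternatives stayed within 1.5 times or within the interval of the reported value. Of 36 distances from an Irx gene to its nearest peak under the alternatives, 24 moved by at most 1 SD of the distances in the 2 lists and 12 by more. These counts do not measure stability, because the SD of 2 values follows from their gap. A small shift between lists that nearly agree can exceed it. Without replicate 1, Irx5 went from 45.373 to 45.404 kb and was counted among the 12. With summits within 100 bp required, the nearest shared summit lay 2498 kb from Irx1 and 1895 kb from Irx2. No paired analysis was possible because the input libraries were not analysed here and the peaks come from no test between groups. Both lists hold sites above the peak caller's threshold, so a site missing from a list may lie below it, and the unknown depth limits how many sites could pass.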
